A study of Mus musculus with 4 samples.

Results

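The nuclear genes for subunits of respiratory complexes II to V, together with cytochrome c and the ATP synthase inhibitor Atpif1, were taken by name from a table of 18169 gene rows measured by RNA-seq in mouse neural stem/progenitor cells (NSCs). All 44 gene names were found, each in 1 row. Of these, 42 had a mean of at least 1 TPM (a relative transcript level corrected for transcript length and scaled to a fixed total per sample) and were tested, and Cox4i2 and Cox6a2 lay under that minimum. The cells were primary NSCs of C57BL/6 mice, dissociated from the brain tissue around the ventricles of single newborns and grown with epidermal growth factor and fibroblast growth factor 2. There were 2 samples of genotype +/+ and 2 of genotype Chd5-/-, the latter from a mouse model deficient in the chromatin remodeller Chd5. The growth protocol gives postnatal day 1 for all cultures, but the age entries differ from it, with days 1 and 2 for +/+ replicates 1 and 2 and days 3 and 4 for Chd5-/- replicates 1 and 2. If those entries hold, age and genotype cannot be told apart. In these bulk cultures, fewer cells of a type and less RNA per cell cannot be told apart either.

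Complex II is succinate dehydrogenase, which belongs both to the tricarboxylic acid cycle and to the respiratory chain and is built of nuclear-encoded subunits alone. Complex III passes electrons from ubiquinol to cytochrome c, complex IV hands them from cytochrome c to oxygen, and both pump protons across the inner mitochondrial membrane. Complex V, the ATP synthase, lets the protons flow back and makes ATP. Complexes III, IV and V are assembled from nuclear-encoded subunits and a few encoded in mitochondrial DNA, which were not analysed here. NSCs are known for a change in the balance of glycolysis and oxidative phosphorylation between quiescent and activated states.

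Promoter sequence is shown because the nuclear respiratory genes are known as targets of NRF1, of GABP (also called NRF2) and of YY1. RefSeq (GRCm38.p6) gave a window of 250 bases before the transcription start for 34 of the member genes, in 37 windows. Both strands were searched for GCATGCGC (NRF1), CCGGAAG (GABP) and ATGGCGG (YY1). The NRF1 letters were found in 6 of the 37 windows (16.2%) against 2.26% of 32851 windows genome-wide. The GABP letters were found in 9 (24.3%) against 6.91%, and the YY1 letters in 2 (5.41%) against 2.21%. The NRF1 letters lay before Sdhb, Cycs, Cox6a1, Atp5g2, Atp5k and Atp5l. Those of GABP lay before Sdhd, Uqcrh, Uqcr11, Cox6a1, Cox6b1, Atp5e, Atp5h, Atp5j and Atp5l, and those of YY1 before Atpif1 and Atp5j. A match of letters is a description of the sequence and not a bound site. The 4 windows printed here carry both the NRF1 and GABP letters (Cox6a1, chr5:115348959-115349208, minus strand), NRF1 alone (Cycs, chr6:50566570-50566819, minus strand), GABP alone (Uqcr11, chr10:80406822-80407071, minus strand) or none of the motifs (Cox7a1, chr7:30183921-30184170, plus strand). Uqcr11 and Cycs had the highest and lowest log2 fold change of complex III with cytochrome c, and Cox7a1 the highest of complex IV. Capitals mark the motif letters, and in Cox6a1 the first capital run holds 2 overlapping NRF1 matches, 1 on each strand.
Cox6a1: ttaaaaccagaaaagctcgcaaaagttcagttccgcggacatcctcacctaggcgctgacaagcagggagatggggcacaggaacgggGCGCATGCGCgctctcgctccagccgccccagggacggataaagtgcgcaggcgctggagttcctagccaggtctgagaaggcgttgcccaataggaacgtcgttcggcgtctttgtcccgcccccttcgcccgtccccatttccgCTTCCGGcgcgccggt
Cycs: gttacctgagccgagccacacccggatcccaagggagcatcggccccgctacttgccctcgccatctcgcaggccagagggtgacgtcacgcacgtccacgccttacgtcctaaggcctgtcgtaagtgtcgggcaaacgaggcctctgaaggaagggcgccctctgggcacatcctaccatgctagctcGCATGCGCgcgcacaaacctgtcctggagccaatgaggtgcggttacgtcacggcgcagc
Uqcr11: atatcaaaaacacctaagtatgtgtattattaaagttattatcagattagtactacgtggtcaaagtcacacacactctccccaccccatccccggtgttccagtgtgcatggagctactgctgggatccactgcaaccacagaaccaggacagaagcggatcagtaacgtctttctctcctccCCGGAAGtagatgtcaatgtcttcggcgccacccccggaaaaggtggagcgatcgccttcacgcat
Cox7a1: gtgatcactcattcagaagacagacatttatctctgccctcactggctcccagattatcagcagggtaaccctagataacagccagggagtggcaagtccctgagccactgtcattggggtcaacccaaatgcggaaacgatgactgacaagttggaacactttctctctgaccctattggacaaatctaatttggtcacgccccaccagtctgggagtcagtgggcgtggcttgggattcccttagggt

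Chd5, the targeted gene, measured 0.39 and 0.37 TPM in +/+ against 0.06 and 0.04 TPM in Chd5-/-, so the genotypes separated in the labelled direction at a level under the minimum for testing. The table holds TPM alone, which leaves the sequencing depth unknown and the counting error of a value without an estimate. The 20 rows of highest TPM took 32.4% and 35.6% of the total in +/+ and 21.6% and 22.8% in Chd5-/-, and the median row was 0.34 higher in Chd5-/- on the log2 scale. NSC markers were present in all samples, with summed levels of 9679 and 8014 TPM in +/+ and 3821 and 6530 TPM in Chd5-/-. The neuronal list summed to 507 and 518 TPM in +/+ and to 372 and 798 TPM in Chd5-/-, nearly all of it Map2 (365.59 to 784.89 TPM), with Tubb3 at most 2.77, Rbfox3 at most 0.07 and Syt1 at 0.73 in both +/+ and 2.21 and 7.62 TPM in Chd5-/-. Astrocyte sums ran from 258 to 748 TPM and oligodendrocyte-lineage sums from 314 to 758 TPM, each highest in Chd5-/- replicate 2, and microglial and endothelial sums were at most 0.77 TPM. Chd5-/- replicate 1 stood apart, with the lowest Fabp7 (1939 against 3822 to 5892 TPM in the others) and the only appreciable mesenchymal markers (12.2 TPM summed, against 0.17 or less). The NSC markers did not all go one way in that sample. Vim, Pax6, Sox2 and Slc1a3 were also lowest there, and Msi1 lay within the range of the others. Nes (94.66 against 60.88 to 83.22 TPM) and Prom1 (45.27 against 0.99 to 4.15 TPM) were highest there. The part of these differences in the results that follow was not tested.

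The respiratory subunit genes were abundant, and as a set they did not separate the genotypes. Their TPM summed to 22620 and 21079 in +/+ and to 27917 and 20259 in Chd5-/-. Chd5-/- replicate 1 had the highest sum and Chd5-/- replicate 2 the lowest, with both +/+ samples between them. The ratio of the means was 1.10 (two-sided exact permutation test, p = 1, where 2 samples against 2 allow no p under 0.333). Complex V made the largest contribution, from 9408 to 13118 TPM, followed by complex IV (5569 to 8285), complex III with cytochrome c (3357 to 5123) and complex II (1161 to 1391). In each of these sums the genotypes overlapped.

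**Figure D1:**
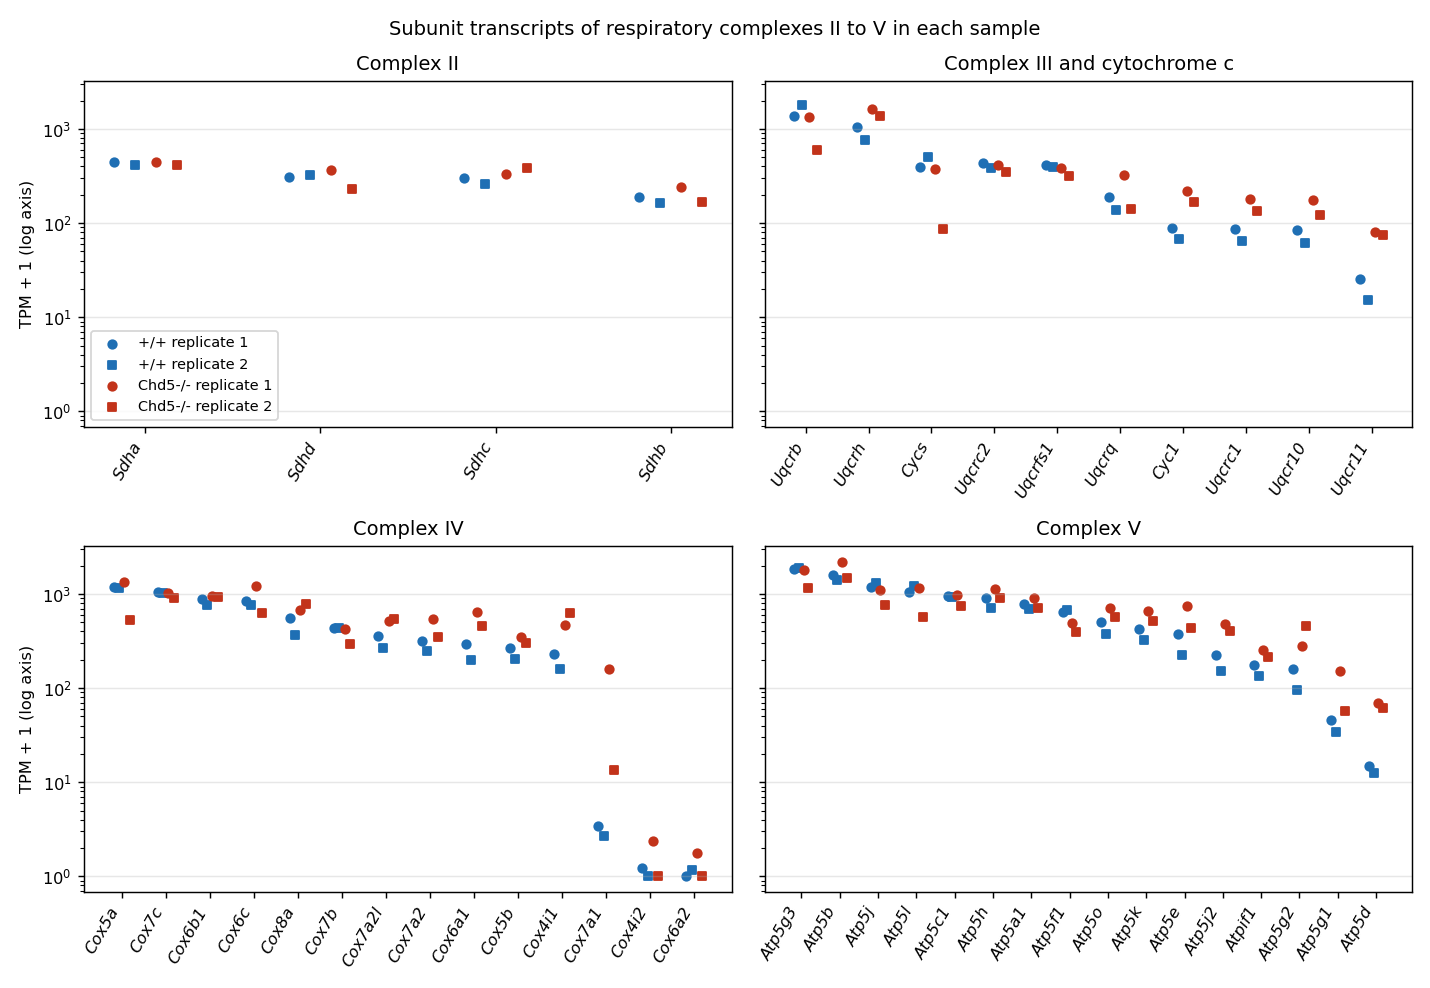
TPM + 1 of the 44 respiratory subunit genes on a log axis, in a panel per complex and ordered by mean +/+ level, with a point for each of the 2 +/+ (blue) and 2 Chd5-/- (red) samples, circles for replicate 1 and squares for replicate 2. The abundant genes such as Atp5g3, Uqcrb and Atp5b have overlapping or lower Chd5-/- values, whereas scarce genes such as Uqcr11, Atp5d and Cox7a1 have both Chd5-/- points above both +/+ points.

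Gene by gene, the differences ran in both directions. Values are given as the log2 fold change, the difference between genotype means of log2(TPM + 1), Chd5-/- minus +/+. With limma and Benjamini-Hochberg adjustment over all 12576 rows tested, 0 of the 42 members had an adjusted p-value under 0.05, where 7 rows in all (0.0557%) did, and the smallest adjusted p of a member was 0.120. At an unadjusted p under 0.05, 12 members (28.6%) were higher in Chd5-/- and 0 were lower, against 21.9% and 2.27% of all rows. Both Chd5-/- values lay above both +/+ values for 23 members (54.8%, against 46.3% of all rows) and below for 7 (16.7%, against 13.0%), and 12 members overlapped. The median log2 fold change of the members was 0.39 as deposited, but -0.025 with median-of-ratios scaling and -0.19 with trends in GC content and transcript length removed. Relative to the median of all rows, the members lay 0.051 higher, complex III with cytochrome c, complex IV and complex V 0.24, 0.21 and 0.11 higher, and complex II at -0.24. These relative signs held under each scaling run, but with trends removed the members came to -0.17, complex IV to -0.15 and complex V to -0.11. Without Chd5-/- replicate 1 the members came to -0.10, complex III with cytochrome c to -0.13, complex IV to 0.00087 and complex V to -0.058. Without +/+ replicate 2 the members came to -0.034 and complex V to -0.00065.

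The 4 samples also differed within a genotype along these genes. +/+ replicate 1 was above +/+ replicate 2 in 34 of 42 members (81.0%), against 65.9% of all rows, and Chd5-/- replicate 1 was above Chd5-/- replicate 2 in 37 (88.1%), against 49.8%. The median difference between the Chd5-/- samples was 0.38 on the log2 scale over the members and -0.0021 over all rows. That difference within a genotype was close to the 0.39 between genotypes. Chd5-/- replicate 2 was below both +/+ samples in 15 members (35.7%, against 25.9% of all rows), and in 8 of them Chd5-/- replicate 1 was not. Chd5-/- replicate 1 was below both in 7 (16.7%, against 24.3%).

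Complex II had the median closest to 0 as deposited, at 0.094, but lay at -0.24 relative to the median of all rows. Its median came to -0.32 with median-of-ratios scaling and to -0.39 with trends in GC content and length removed. Sdha, the flavoprotein that oxidizes succinate, was at 448.53 and 416.95 TPM in +/+ and at 445.29 and 408.38 TPM in Chd5-/-, and the genotypes overlapped. Its log2 fold change was -0.020 (95% interval -0.58 to 0.54, limma adjusted p = 0.964). Sdhb, the iron-sulfur subunit, was at 187.11 and 162.58 TPM in +/+ and at 243.51 and 166.99 TPM in Chd5-/-. Only Chd5-/- replicate 1 exceeded the +/+ range. Sdhd, a membrane anchor, was at 308.34 and 323.56 TPM in +/+, with the Chd5-/- samples on either side at 366.95 and 226.78 TPM. Sdhc, the other anchor, was at 297.28 and 257.76 TPM in +/+ and at 334.86 and 380.00 TPM in Chd5-/-. It was the complex II gene with both Chd5-/- values above both +/+ values, by 0.36 on the log2 scale (SE 0.23, limma adjusted p = 0.368), a difference that came to -0.050 with median-of-ratios scaling and to -0.34 with trends in GC content and length removed.

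Complex III held some of the largest differences in both directions. Uqcr11, a small accessory subunit (chr10:80402997-80406830, minus strand, GRCm38), was at 24.65 and 14.19 TPM in +/+ and at 79.19 and 73.59 TPM in Chd5-/-. The genotypes were well apart, with a log2 fold change of 1.97 (SE 0.32, limma adjusted p = 0.120). Cyc1, the haem-bearing cytochrome c1 that reduces cytochrome c, was at 86.85 and 67.40 TPM in +/+ and at 217.68 and 164.78 TPM in Chd5-/-, also without overlap (1.30, SE 0.26, limma adjusted p = 0.120). Uqcrc1, a core protein, Uqcr10, a small accessory subunit, and Uqcrh, the hinge protein, likewise had an unadjusted p under 0.05, with log2 fold changes of 1.04, 1.02 and 0.75. These 5 were the complex III genes past that unadjusted threshold.

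In the opposite direction, Uqcrb, the ubiquinone-binding subunit, was at 1382.35 and 1798.30 TPM in +/+ and at 1349.54 and 599.60 TPM in Chd5-/-. It was the most abundant complex III transcript in both +/+ samples, but not in Chd5-/-, where Uqcrh was higher. Chd5-/- replicate 1 lay just under the +/+ range and replicate 2 far under it, and the log2 fold change was -0.81 (SE 0.45, limma adjusted p = 0.329). Cycs, the soluble electron carrier cytochrome c (chr6:50562563-50566538, minus strand), showed the same arrangement, with 392.56 and 498.55 TPM in +/+ and 375.47 and 84.74 TPM in Chd5-/-. Its log2 fold change of -1.30 was the lowest of the members, with an SE of 0.70 (limma adjusted p = 0.314). The partners Cyc1 and Cycs, which meet in electron transfer, thus had differences of opposite sign. The sizes depended on the setting. With trends in GC content and transcript length removed, Cyc1 came to 0.19 and Cycs to -1.12. Without Chd5-/- replicate 2, Cycs came to -0.24. Uqcrfs1, the Rieske iron-sulfur protein, was at 412.78 and 390.08 TPM in +/+ and at 384.93 and 311.91 TPM in Chd5-/-, a log2 fold change of -0.21. Uqcrc2, the other core protein, and the accessory Uqcrq overlapped between genotypes.

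**Figure D2:**
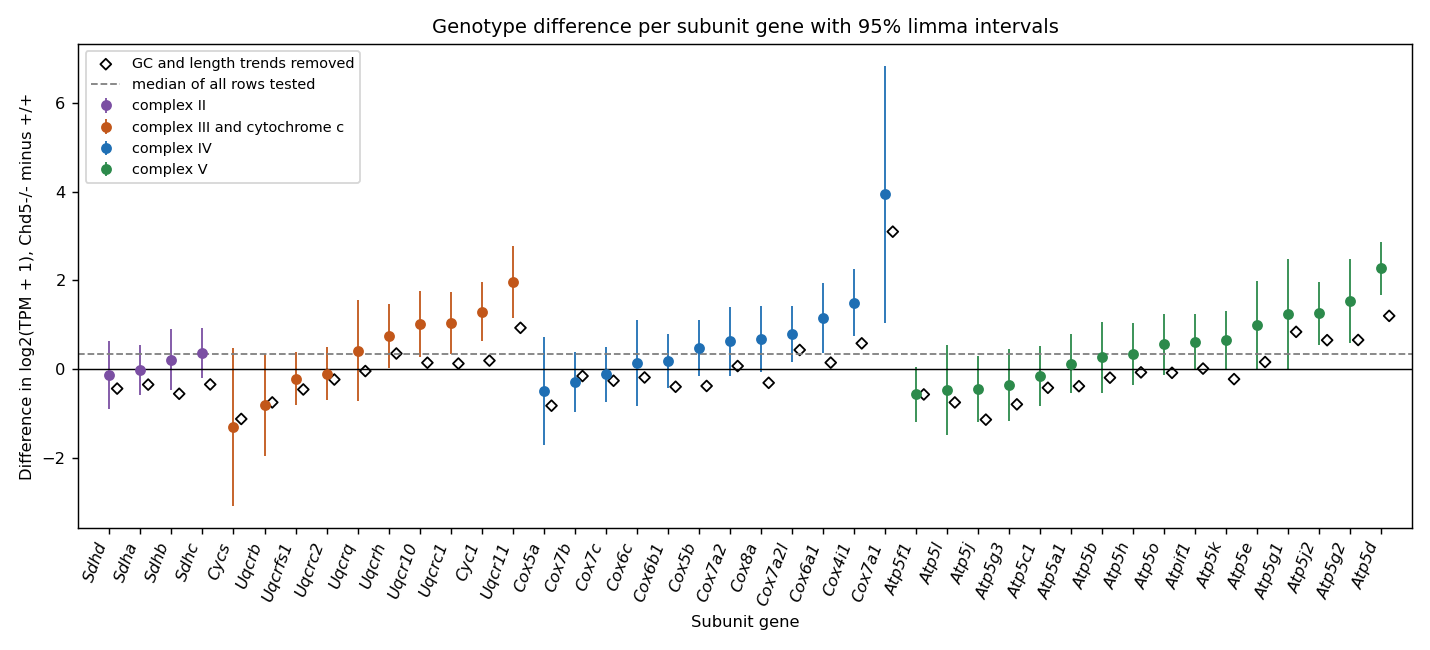
Log2 fold change of each tested gene (Chd5-/- minus +/+, on log2(TPM + 1)), grouped by complex, with 95% intervals from limma, open diamonds for the value after removal of GC and length trends, and a dashed line at the median of all rows (0.34). Intervals of 12 genes lie above 0 and of 0 genes below 0, before adjustment for the 12576 rows tested. Cox7a1 at 3.94 has the widest interval.

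In complex IV, the 4 genes with an unadjusted p under 0.05 were Cox4i1, Cox6a1, Cox7a1 and Cox7a2l. Cox4i1, the ubiquitous isoform of the regulatory subunit Cox4 (chr8:120668222-120674207, plus strand), was at 227.69 and 158.59 TPM in +/+ and at 462.17 and 628.16 TPM in Chd5-/-. The genotypes did not overlap (1.50, SE 0.30, limma adjusted p = 0.120). Its counterpart Cox4i2, known from lung and from low oxygen, was at 0.22 and 0.00 TPM in +/+ and at 1.40 and 0.00 TPM in Chd5-/-, with Chd5-/- replicate 1 alone above 1 TPM. Cox6a1, the widely expressed Cox6a isoform, was at 296.33 and 198.72 TPM in +/+ and at 636.06 and 457.30 TPM in Chd5-/- (1.15, SE 0.31, limma adjusted p = 0.134). The heart and muscle isoform Cox6a2 was at 0.00 and 0.18 TPM in +/+ and at 0.79 and 0.00 TPM in Chd5-/-, a level too low to compare.

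Cox7a1, the heart and skeletal muscle isoform of Cox7a (chr7:30184144-30186078, plus strand), had the largest difference of all members. It was at 2.40 and 1.67 TPM in +/+ and at 159.04 and 12.41 TPM in Chd5-/-. Both Chd5-/- values lay above the +/+ values, but they were far apart, and the mean of 85.7 ± 104 TPM (SD, n = 2) is set by replicate 1. The log2 fold change was 3.94 (95% interval 1.05 to 6.84, limma adjusted p = 0.145). The widely expressed isoform Cox7a2 was at 318.31 and 246.70 TPM in +/+ and at 538.64 and 350.44 TPM in Chd5-/-. Of the summed TPM of Cox7a1 and Cox7a2, Cox7a1 made up 0.748% and 0.672% in +/+ and 22.8% and 3.42% in Chd5-/-. The muscle markers Ckm, Des, Myh3 and Tnnt2 were at most 0.2 TPM in any sample. The muscle list summed to 1.41 and 0.08 TPM in +/+ and to 0.84 and 3.02 TPM in Chd5-/-. Of these sums, Actc1 gave 1.25 and 0 TPM in +/+ and 0.65 and 2.56 TPM in Chd5-/-. The mesenchymal list was highest in Chd5-/- replicate 1, at 12.2 TPM, of which Col3a1 gave 7.41 and Dcn 4.17 TPM. The part of either list in the Cox7a1 value was not tested.

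Cox7a2l, a related protein known for joining complexes III and IV into supercomplexes, was at 352.27 and 264.75 TPM in +/+ and at 516.48 and 535.18 TPM in Chd5-/-, without overlap (0.78). Cox5a, which lies on the matrix side of the enzyme, was at 1180.78 and 1163.81 TPM in +/+, with Chd5-/- values on either side at 1324.25 and 523.00 TPM (-0.49). Cox7b, a small membrane subunit, was at 428.98 and 432.43 TPM in +/+ and at 421.72 and 295.86 TPM in Chd5-/- (-0.29). It was the complex IV gene with both Chd5-/- values below both +/+ values. Of the other complex IV subunits, Cox5b, Cox6b1, Cox7a2 and Cox8a had both Chd5-/- values above the +/+ values, and Cox6c and Cox7c overlapped. In all, 8 of 12 tested complex IV genes (66.7%, against 46.3% of all rows) had both Chd5-/- values above both +/+ values.

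In complex V, the genes of the catalytic core overlapped between genotypes and the largest difference was in the central stalk. Atp5a1 and Atp5b encode the alpha and beta subunits, which form the catalytic ring. Atp5a1 was at 787.09 and 692.16 TPM in +/+ and at 914.01 and 708.02 TPM in Chd5-/-, and Atp5b at 1592.78 and 1395.01 TPM and at 2194.45 and 1463.27 TPM. Both overlapped, with log2 fold changes of 0.12 and 0.27 that came to -0.29 and -0.15 with median-of-ratios scaling. Atp5d, the delta subunit of the central stalk (chr10:80138632-80145818, plus strand), was at 13.74 and 11.43 TPM in +/+ and at 68.54 and 60.32 TPM in Chd5-/-. The genotypes were 5.12-fold apart in mean TPM, and the log2 fold change of 2.27 had an SE of 0.24 (limma adjusted p = 0.120). Of its neighbours in the stalk, Atp5e (epsilon) had both Chd5-/- values above the +/+ values, with a log2 fold change of 0.99, and Atp5c1 (gamma) overlapped.

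Subunit c, which forms the rotating membrane ring, is encoded by 3 genes with the same mature product. Atp5g1 was at 44.54 and 32.99 TPM in +/+ and at 149.07 and 56.33 TPM in Chd5-/- (1.24). Atp5g2 was at 157.41 and 95.05 TPM in +/+ and at 277.83 and 457.67 TPM in Chd5-/- (1.54, SE 0.38, limma adjusted p = 0.126). For both, the Chd5-/- samples lay above the +/+ samples. Atp5g3, the most abundant of all members in +/+, was at 1842.53 and 1890.99 TPM in +/+ and at 1801.61 and 1168.81 TPM in Chd5-/- (-0.36), in the opposite order. The sum of the 3 was 2044 and 2019 TPM in +/+ and 2229 and 1683 TPM in Chd5-/-, and overlapped. The share of Atp5g3 in that sum was 90.1% and 93.7% in +/+ and 80.8% and 69.5% in Chd5-/-, without overlap.

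**Figure D3:**
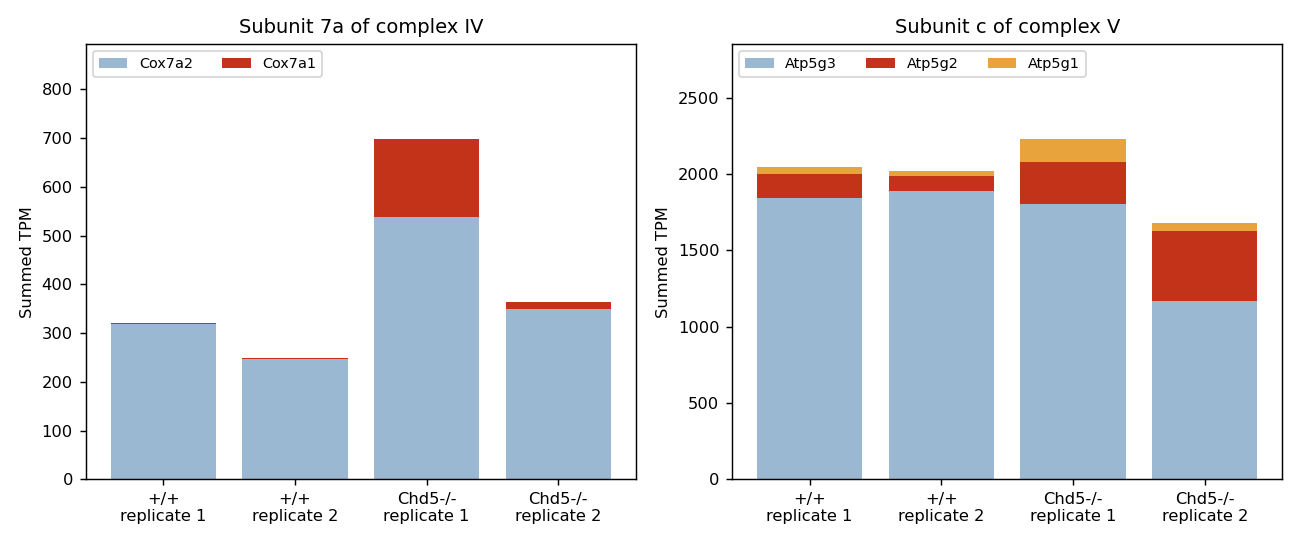
Summed TPM in each of the 4 samples, as stacked bars, of Cox7a2 and Cox7a1 (left) and of the subunit c genes Atp5g3, Atp5g2 and Atp5g1 (right). Cox7a1 is a visible part of the bar in Chd5-/- replicate 1 (22.8%) and little elsewhere, and Atp5g3 takes a smaller share of the bar in both Chd5-/- samples (80.8% and 69.5%) than in +/+.

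Among the stator and membrane subunits, Atp5f1 (subunit b of the peripheral stalk) was at 636.25 and 670.91 TPM in +/+ and at 495.19 and 392.96 TPM in Chd5-/-. Both Chd5-/- values were lower (-0.57), as they were for Atp5j, another peripheral stalk subunit (-0.45). Atp5l, subunit g of the membrane part, was at 1046.00 and 1203.88 TPM in +/+ and at 1148.40 and 562.84 TPM in Chd5-/-, and overlapped (-0.48). In the same membrane part, Atp5j2 (subunit f) was higher in both Chd5-/- samples, at 483.29 and 400.20 TPM against 221.00 and 151.10 TPM in +/+ (1.26, SE 0.28, limma adjusted p = 0.121). Atp5k (subunit e), the stalk subunit Atp5o and Atp5h, subunit d, were also above in both. Atpif1, which blocks reverse ATP hydrolysis, was at 173.13 and 133.11 TPM in +/+ and at 255.57 and 213.78 TPM in Chd5-/- (0.62), without overlap.

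The differences went with the level and base composition of the transcripts. All 7 tested members under 100 TPM in +/+ had both Chd5-/- values above both +/+ values, where 49.7% of all rows of such level did. Of the 7 members over 1000 TPM, 0 did, 3 had both below and 4 overlapped, where 28.8% of the 73 rows of such level lay above and 34.2% below. Across the 42 members, Spearman's rho of the log2 fold change was -0.78 with the mean +/+ TPM, where the +/+ values enter both axes, and 0.80 with transcript GC content. Over all rows these were -0.49 with the level and 0.60 with GC content. These are descriptions across genes of the same 4 samples, and genes are not independent replicates. The 21 members of higher GC content (51.9% to 62.3%) had a median difference of 0.99 on the log2 scale, and 18 of them had both Chd5-/- values above, where 72.5% of all rows in that GC range did. The 21 of lower GC content (40.8% to 51.6%) had a median of -0.11, and 5 were above, where 29.4% of all rows in that range were.

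**Figure D4:**
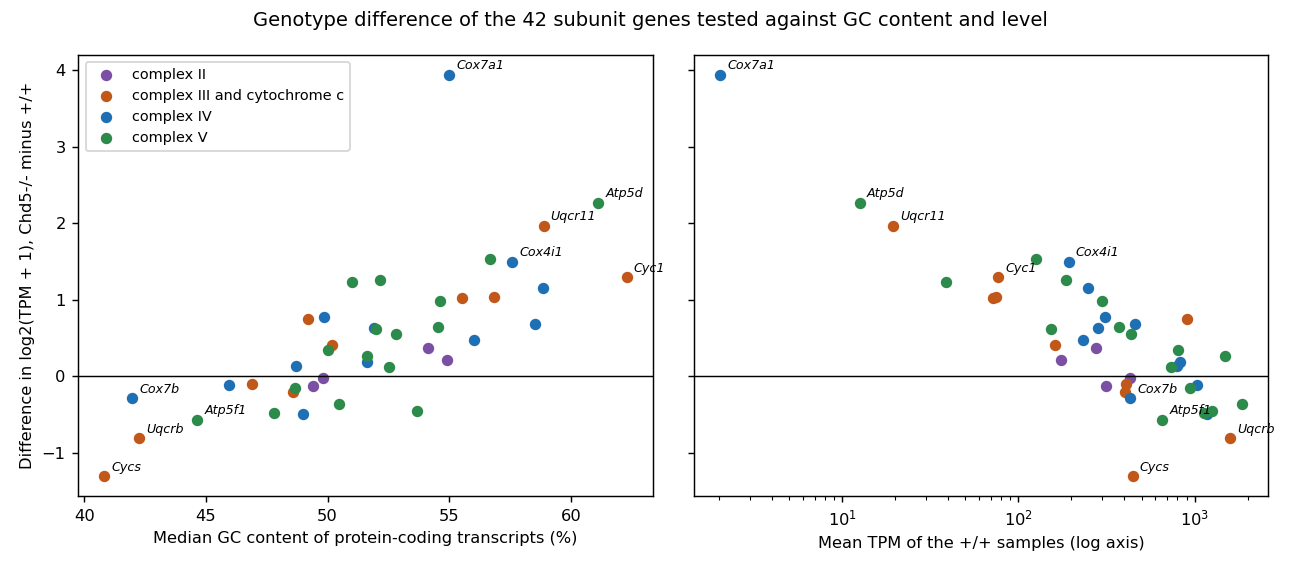
Log2 fold change of each tested gene (Chd5-/- minus +/+, on log2(TPM + 1)) against the GC content of its transcript in percent and against its mean +/+ TPM on a log axis, with a point per gene and the complexes marked. Genes of high GC content and low level, such as Atp5d and Uqcr11, lie at the top, and Cycs, with the lowest GC content of 40.8%, at the bottom.

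With trends in GC content and transcript length removed from each sample, the median of the members was -0.19, against -0.025 for all rows. The medians were -0.39 for complex II, 0.042 for complex III with cytochrome c, -0.17 for complex IV and -0.14 for complex V. Uqcr11 (0.93), Cox7a1 (3.10), Atp5d (1.201) and Atp5j2 (0.65) had an unadjusted p under 0.05 in the higher direction (9.52% of members, against 4.79% of all rows). Atp5f1, Atp5g3 and Atp5j had one in the lower direction (7.14%, against 6.28%). The values of Cyc1 and Cox4i1 came to 0.19 and 0.58. Whether GC content marks a technical or a cellular difference was not tested.

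The number of calls turned on single Chd5-/- samples. Without Chd5-/- replicate 1, 9 members had a limma adjusted p under 0.05, of which 6 were higher and 3 lower, against 8.09% and 1.82% of all rows. The lower ones were Cycs (-2.37), Uqcrb (-1.39) and Cox5a (-1.16). Without Chd5-/- replicate 2, 10 members did and all were higher, against 7.27% of all rows higher and 1.37% lower. Atp5d, Uqcr11, Cox7a1, Cox4i1 and Cyc1 were the 5 called in both, against the same +/+ samples. In these fits the lone Chd5-/- sample is assumed to vary as the +/+ samples do. Cox7a1 came to 2.15 without replicate 1 and to 5.73 without replicate 2.

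Related gene lists were described in the same way. Of 36 complex I subunit genes, which feed electrons from NADH into the chain, 0 passed the adjusted threshold with limma, 15 were higher (41.7%, against 21.9% of all rows) and 1 was lower (2.78%, against 2.27%) at an unadjusted p under 0.05. Their median was 0.38, close to the 0.39 of complexes II to V. With trends in GC content and transcript length removed, their median was -0.069, against -0.025 for all rows. In that setting 4 of the 36 were higher and 5 lower at an unadjusted p under 0.05, against 4.79% and 6.28% of all rows. The highest was Ndufb7 (1.86 and 2.35 TPM in +/+, 17.61 and 12.17 TPM in Chd5-/-) and the lowest Ndufc2 (789.22 and 871.81 TPM in +/+, 599.47 and 331.62 TPM in Chd5-/-), so the scarce and the abundant gene again lay at opposite ends. Of 33 assembly factors measured, 5 were higher (15.2%, against 21.9% of all rows) and 2 lower (6.06%, against 2.27%) at that threshold. Their median was 0.12. Uqcc3, needed for complex III assembly, was the highest (9.68 and 8.34 TPM in +/+, 24.68 and 22.85 TPM in Chd5-/-), and Cox11, which delivers copper to complex IV, the lowest (27.39 and 29.44 TPM in +/+, 19.51 and 15.41 TPM in Chd5-/-).

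Among 13 enzymes of the tricarboxylic acid cycle, 2 were higher (15.4%, against 21.9% of all rows) and 1 was lower (7.69%, against 2.27%) at an unadjusted p under 0.05, with a median of 0.30. Idh3g and Idh3a, subunits of the same NAD-dependent isocitrate dehydrogenase, lay at the 2 ends, with 1.34 for Idh3g (104.49 and 66.90 TPM in +/+, 199.13 and 227.04 TPM in Chd5-/-) and -0.82 for Idh3a (303.72 and 343.48 TPM in +/+, 277.98 and 119.41 TPM in Chd5-/-). Of 11 regulators of mitochondrial gene expression tested, 1 was higher (9.09%) and 0 were lower by limma at that threshold, both under the shares of all rows, with a median of -0.094. The highest, and the one counted as higher, was Polrmt, the mitochondrial RNA polymerase. It was at 0.71 and 0.64 TPM in +/+ and 2.46 and 2.37 TPM in Chd5-/- (1.03). Both of its +/+ values lay under the 1 TPM minimum, so it was tested only through its Chd5-/- values. With trends in GC content and transcript length removed, Polrmt came to 0.075. The coactivator Ppargc1a was the lowest (-0.31), with 55.31 and 61.84 TPM in +/+ and 60.95 and 36.07 TPM in Chd5-/-, which overlapped. Nrf1 (0.55), Gabpa (-0.13) and Tfam (-0.094), whose products act on the promoters of nuclear respiratory genes or on mitochondrial DNA, did not pass the adjusted threshold. None of the 4 lists (complex I, assembly factors, cycle enzymes and regulators) had a gene with a limma adjusted p under 0.05.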

How the data were processed

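The data were RNA-seq of 4 cultures of primary mouse NSCs, 2 per genotype. The authors deposited TPM values in 1 table, from stranded libraries of polyadenylated RNA. The submitters' processing notes name Bowtie2 2.2.3, RSEM 1.2.20 and mm10, and the annotation is not given in the sources used here. RSEM divides reads among similar transcripts, and 5 members have pseudogenes named after them (Uqcrh, Cycs, Atp5c1, Atp5k and Atp5l), so their values are less certain. Pseudogenes under other names were not searched for, so the other members may have them too. TPM in each sample adds to a fixed total and keeps no depth. Mitochondrially encoded subunits were not analysed here.

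The 12576 of 18169 rows that averaged 1 TPM or more were tested as log2(TPM + 1) with limma 3.58.1 in R 4.3.3 (lmFit, eBayes with a trend, two-sided), with Benjamini-Hochberg adjustment over all rows. With 2 samples per genotype, p-values measure the spread between single cultures. In limma that spread is not of the gene alone, since its variance is drawn toward that of genes of similar level. On this scale, differences of scarce genes are understated. Coordinates, GC content and length came from GENCODE M21 (GRCm38), for 93% of rows tested and all members tested, and trends in both were removed by loess (span 0.5). Over all rows tested, same-numbered samples did not deviate together (correlation -0.152), so the numbers were not taken as pairs. Over the 42 members tested, replicate 1 was above replicate 2 in most genes of both genotypes (34 in +/+ and 37 in Chd5-/-).

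Per-sample TPM is given for all of complex II, the 2 highest and 2 lowest members of each other complex, isoforms, core subunits and Atpif1, and for the ends of the other lists. Uqcrc1, Uqcr10, Uqcrh, Atp5e, Atp5j, Atp5j2 and promoters printed were picked after their values were seen. The members, lists and tests were chosen with earlier results of these data known. Alternatives were pseudocounts of 0.1 and 5, no minimum or 10 TPM, quantile normalization, median-of-ratios scaling, a new total without the 20 rows of highest TPM, trend removal, the replicate number as a block, and leaving out each sample. The fit was tested on simulated data. Python 3.11.15, pandas 2.3.3, numpy 2.4.6, scipy 1.17.1 and matplotlib 3.10.9 were used.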

Additional observations from a re-analysis of the deposited data

How the results depend on the processing

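Of the results for single genes, Uqcr11, Atp5d, Cox7a1, Cyc1, Cox4i1, Cycs and Uqcrb kept their direction in all settings run. So did Cox6a1, Cox7a2, Cox7a2l, Cox7b, Uqcrfs1, Atp5f1, Atp5g1, Atp5g2, Atp5g3 and Atpif1, the last at 0.013 with trends removed. Depth is unknown, and 2 cultures per genotype limit every test. The median of all rows was 0.34 as deposited, -0.032 with median-of-ratios scaling, -0.054 with quantile normalization, 0.13 with rescaling (a total without the 20 most abundant rows) and -0.025 with trends removed, so directions near 0 depended on scaling. Relative to that median, the members' median was 0.051 as deposited, 0.0078 (median-of-ratios), 0.30 (quantile), 0.023 (rescaled) and -0.17 (trends removed). The rows higher and lower at an unadjusted p under 0.05 went from 2748 and 285 to 1391 and 1507 with median-of-ratios, 1103 and 1024 with quantile, 1871 and 819 with rescaling, and 560 and 735 with trends removed. The cause of these moves was not tested.

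Rows past the adjusted threshold (7 as reported) were 4 with a pseudocount of 0.1, 0 with no minimum, 1 with quantile normalization and 2 with trends removed. With median-of-ratios scaling, 7 members were higher and 3 lower at an unadjusted p under 0.05, and medians were -0.025 for all members, -0.32 for complex II, 0.14 for IV and 0.033 for V, with Sdhb at -0.21, Sdhc at -0.050, Atp5a1 at -0.29 and Atp5b at -0.15. With quantile normalization, 2 members were lower, and medians were -0.080 (II), 0.37 (IV) and 0.15 (V), with Atp5a1 at -0.24 and Atp5b at -0.012. With rescaling, 1 was lower, and medians were 0.15 (all), -0.14 (II), 0.32 (IV) and 0.21 (V), with Sdhb at -0.028 and Atp5a1 at -0.11. With trends removed, 4 were higher and 3 lower, and medians were -0.19 (all), -0.39 (II), -0.17 (IV) and -0.14 (V), with Sdhb at -0.56, Sdhc at -0.34, Atp5a1 at -0.38 and Atp5b at -0.19.

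With the replicate block, 0 rows passed the adjusted threshold and 12 of 42 members were higher and 0 lower at an unadjusted p under 0.05. Of all 12576 rows, 2111 were higher and 178 lower in that fit. With the block and trend removal together (added after seeing the data), 0 rows passed, and 3 members were higher and 1 lower. Of the 11700 rows in that fit, 373 were higher and 447 lower. Fold changes were those of trend removal alone. Crossed pairing, also added after seeing the data, gave 5 rows past the adjusted threshold, 11 members higher and 1 lower. With it, 2808 of the 12576 rows were higher and 284 lower.

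Leaving out each sample gave 0 to 1247 rows past the adjusted threshold (1247 without Chd5-/- replicate 1, 1086 without replicate 2, 0 without either +/+ sample) and 0 to 10 members. Each of these fits leaves a genotype with a lone sample, so counts of members at an unadjusted p are not given. Medians ranged from 0.22 to 0.58 (all), -0.072 to 0.24 (II), 0.22 (without Chd5-/- replicate 1) to 0.94 (without Chd5-/- replicate 2) (III), 0.32 to 0.75 (IV) and 0.26 (without +/+ replicate 2) to 0.64 (V). Single-gene values that changed sign ranged from -0.082 to 0.042 for Sdha, -0.062 to 0.48 for Sdhb, -0.48 to 0.22 for Sdhd, -1.16 to 0.18 for Cox5a, -0.060 to 0.31 for Atp5a1, -0.027 to 0.56 for Atp5b and -0.99 to 0.033 for Atp5l.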
